A study of Drosophila melanogaster with 42 samples.

Results

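The fly genes ribbon (rib) and Twin of m4 (Tom) were followed across the 42 arrays of the series. Members were the probesets (sets of array probes that measure a gene) that the probe table assigns to rib or to Tom and to no other gene. There was 1 such probeset for each gene (locus tags CG7230 for rib and CG5185 for Tom), which makes 2 of the 13647 probesets that name a single gene, and 2 of the 11982 genes so named. The pair was taken as chosen by its difference with DN-Dmp53 at Day 10, where rib ranked 4 and Tom 5 by size among the 111 genes called as higher. The genes on either side of them in that ranking differed by 4.32 (rank 3) and 3.55 (rank 6) on the log2 scale, against 4.03 for rib and 3.92 for Tom. The values of that comparison, and of those that share its arrays, are therefore given as a description with no test.

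rib encodes a nuclear protein with a BTB/POZ domain, which joins such proteins into pairs and complexes, and a Pipsqueak-type DNA-binding domain. In the embryo it is required for the salivary glands and the tracheal tubes to take their shape, together with its partner Lolal (lola like). Tom belongs to the Bearded family of small proteins, which bind the ubiquitin ligase Neuralized and so keep it from driving the internalization of Delta, the ligand of the receptor Notch. Through this step the family holds down Notch signalling between neighbouring cells, and several of its members are themselves switched on by Notch. In the RefSeq gene table (assembly Release 6) rib lies on chromosome arm 2R and Tom on 3L, where BobA, Tom, Brd and Ocho, all of the Bearded family, follow each other with only a long noncoding RNA gene between BobA and Tom.

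Each of the 14 groups held 3 arrays of RNA from whole females aged 10 or 40 days, with at least 75 females pooled in each sample. Dietary restriction (DR) was food of 0.5N against high calorie food of 1.5N. It was applied to Canton-S flies, which had their own fed controls, and to flies of the mixed yw, w1118 background. The yw/w1118 DR flies carried ELAV-GeneSwitch, a neuronal driver that the drug RU486 turns on, with the P-element insertion that it uses to raise dSir2 expression, and they received the diluent alone. Flies of the same genotype on high calorie food with diluent were the controls of both yw/w1118 DR and dSir2, and with RU486 they were the dSir2 overexpressing flies. DN-Dmp53 flies, labelled as a p53 knockdown, had the same driver and a transgene for a dominant-negative form of Dmp53, with RU486, and their controls had the diluent. Their diet is labelled normal, with no strength stated for it. The drug without a transgene was not analysed here. The driver acts in neurons whereas the RNA came from the whole body, so that fewer cells of a type and less RNA per cell cannot be told apart.

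The values are log2 expression levels on which no probeset can fall below 2.11, and 45.1 to 46.6% of probesets on each array lay within 0.1 of this floor. Array medians were between 2.77 and 3.16, and each array correlated with the rest of its group at 0.995 to 0.999. The probeset for Sirt1, the gene that dSir2 flies overexpress, differed between dSir2 flies and controls by -0.22 ± 0.11 (SE) at Day 10 and by 0.04 ± 0.08 at Day 40. That for p53 was 0.23 ± 0.07 higher in DN-Dmp53 flies at Day 10 and 0.22 ± 0.07 at Day 40. None of these 4 differences passed the test in limma (adjusted p of 0.232, 0.943, 0.223 and 0.304). A second p53 probeset stayed at the floor on all 42 arrays. Transcripts of male organs (8 markers, with accessory gland proteins such as Acp36DE), summed to a log2 level, were at 5.11 to 5.30 on 37 arrays and at 6.94 to 7.94 on 5. Those 5 were DN-Dmp53 replicates 1 and 3, Canton-S control replicates 2 and 3 and Canton-S DR replicate 3, all at Day 40, and results that use them are also given without them, a setting added after seeing the data. Lower traces were kept in: Canton-S DR replicate 3 at Day 10 (5.30) had 4 of 8 markers over 0.1 above the floor. dSir2 replicates 2 (5.19) and 3 (5.15) at Day 40 had 3 and 1.

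Group means of rib ran from 3.86 to 8.19 and covered 4.32 log2 units. DN-Dmp53 at Day 10 was highest (8.19 ± 0.19, SD, n = 3), followed by yw/w1118 DR at Day 10 (7.56 ± 0.27), DN-Dmp53 at Day 40 (7.09 ± 0.87) and dSir2 at Day 40 (6.72 ± 0.17). Canton-S controls at Day 10 came next (6.60 ± 0.33), and the same line at Day 40 stood last (3.86 ± 0.61). Between these lay, from high to low, Canton-S DR at Day 10 (5.67), dSir2 controls (5.54) and yw/w1118 DR (5.53) at Day 40, dSir2 controls (4.93) and dSir2 (4.68) at Day 10, Canton-S DR at Day 40 (4.62), and DN-Dmp53 controls at Day 10 (4.16) and Day 40 (4.12). Of the 13 pairs of neighbours in this order 11 overlapped in their arrays, and the 2 that did not were DN-Dmp53 against yw/w1118 DR at Day 10 and Canton-S controls against Canton-S DR at Day 10. No array of rib came within 0.1 of the floor.

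Tom covered 4.65 log2 units, from 2.96 to 7.61. Its highest means were those of yw/w1118 DR at Day 10 (7.61 ± 0.45, SD, n = 3) and DN-Dmp53 at Day 10 (7.33 ± 0.06). Canton-S DR (6.56 ± 0.63) and Canton-S controls (5.97 ± 0.34) at Day 10 followed, then DN-Dmp53 (5.71), Canton-S DR (5.53) and dSir2 (5.46) at Day 40. The lower part of the order held dSir2 (5.10) and its controls (5.08) at Day 10, yw/w1118 DR (4.69), dSir2 controls (3.96) and Canton-S controls (3.89) at Day 40, and last the DN-Dmp53 controls at Day 10 (3.41) and Day 40 (2.96). Neighbours overlapped in 12 of 13 pairs, and the exception was DN-Dmp53 against Canton-S DR, both at Day 10. One array lay near the floor, replicate 1 of the DN-Dmp53 controls at Day 40 with 2.13. Replicates of both genes spread widely: the SD within groups, pooled over the 14 groups, was 0.75 for rib and 0.79 for Tom, above that of 98.3% and 98.5% of the 9334 probesets that averaged over 1 log2 unit above the floor.

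**Figure D1:**
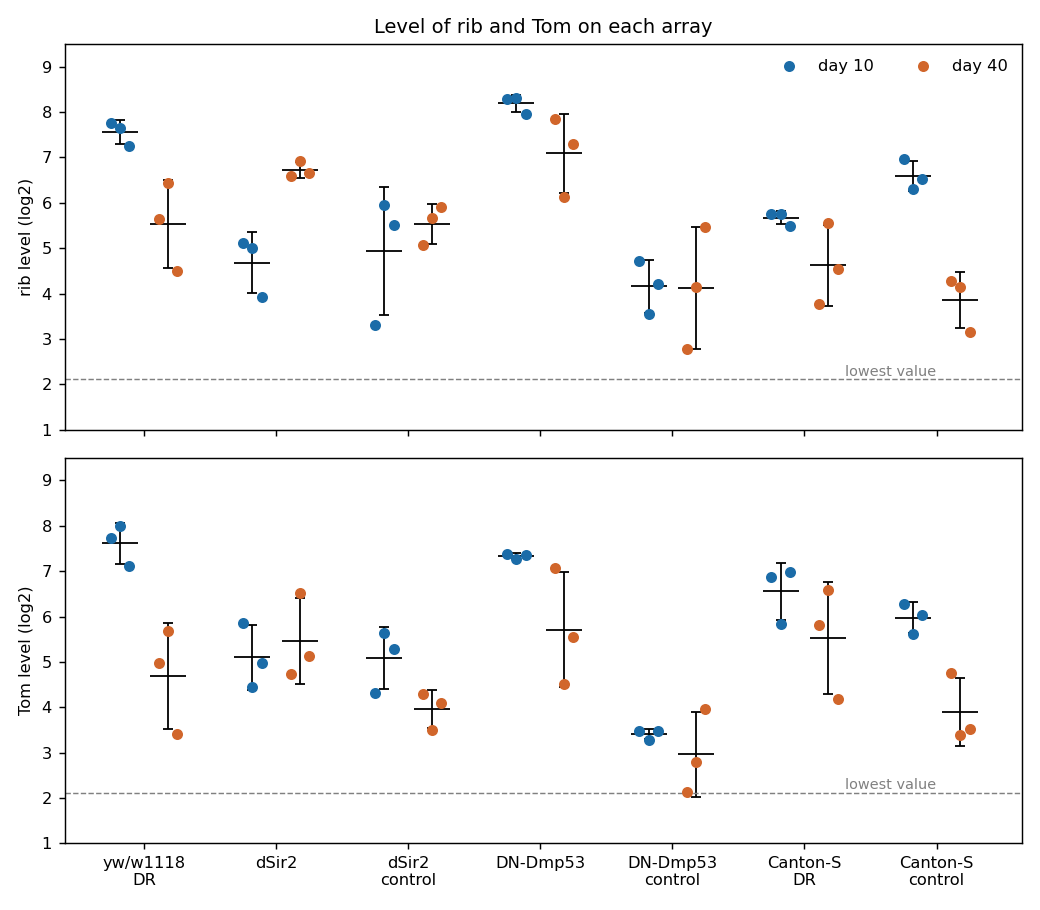
Levels of rib (top) and Tom (bottom) on a log2 scale, with 1 point per array, horizontal bars for group means and vertical bars for the SD of 3 arrays; blue is Day 10, orange Day 40, and the dashed line is the lowest value of the data set, 2.11. Both genes stood above 7 on every Day 10 array of yw/w1118 DR and DN-Dmp53, and replicates lay further apart in most of the Day 40 groups.

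With DN-Dmp53 at Day 10, the comparison that chose the genes, rib read 8.29, 8.30 and 7.96 on the 3 arrays with the drug and 4.72, 3.54 and 4.21 on the 3 without it. The means differed by 4.03 ± 0.33 (SE), a 16.3-fold difference, and the groups were far from overlapping. Tom read 7.37, 7.27 and 7.35 against 3.48, 3.27 and 3.47, which is 3.92 ± 0.07 and 15.1-fold, and each of these 2 groups had an SD of 0.12 or less. In this comparison 2.01% of the probesets tested were called (adjusted p under 0.05 and a change over 1.5-fold), 247 in number, or 105 with the replicate number as a block, and 11.3% had all DN-Dmp53 arrays above all control arrays. Arrays of the same replicate number deviated together here.

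At Day 40 separate samples of the same genotype and treatment gave the test that the choice of genes had not used. rib read 7.84, 6.13 and 7.30 with DN-Dmp53 and 2.77, 4.14 and 5.46 in controls, and Tom read 7.06, 4.52 and 5.55 against 2.13, 2.79 and 3.97. For both genes all 3 arrays of the DN-Dmp53 flies lay above all 3 of the controls, as was the case for 11.1% of probesets. The difference was 2.97 ± 0.87 (SE, 7.81-fold, 95% interval 0.68 to 5.26) for rib and 2.74 ± 0.85 (6.70-fold, 0.48 to 5.0) for Tom. Neither passed limma's test after Benjamini-Hochberg adjustment (adjusted p of 0.299 and 0.316, unadjusted 0.0216 and 0.0269), in a comparison that called 1 of 12722 probesets (0.00786%). One fit of all 14 groups, which shares the estimate of spread, gave adjusted p of 0.00542 for rib and 0.0127 for Tom at the same differences. That spread is partly taken from the Day 10 arrays that chose the genes, so these 2 p-values are not independent of the choice. Replicate 2, the DN-Dmp53 array without male organ transcripts, stood at 6.13 for rib and 4.52 for Tom, above all 3 controls, and without replicates 1 and 3, which held them, the differences were 2.01 for rib and 1.56 for Tom (adjusted p of 0.749 and 0.714 in limma, 1 array against 3). Relative to Day 10 the DN-Dmp53 difference was smaller by 1.06 ± 0.96 for rib and by 1.18 ± 0.88 for Tom, a change of about 1 SE that shares the Day 10 arrays and was not tested. Without those 2 arrays it was -2.02 and -2.36.

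DR of yw/w1118 females at Day 10 raised both genes. On the DR arrays rib read 7.76, 7.65 and 7.25, and on the control arrays 3.31, 5.95 and 5.52. Tom read 7.73, 8.0 and 7.11 against 4.32, 5.63 and 5.29. Neither gene overlapped between the groups, and replicate 1 was the lowest control array for both. The rise was 2.63 ± 0.77 (SE, 6.19-fold, 95% interval 0.60 to 4.66) for rib, with an adjusted p of 0.0412 in limma, and 2.54 ± 0.44 (5.80-fold, 1.39 to 3.69) for Tom, with an adjusted p of 0.00795. Calls were common here: 29.7% of probesets passed the same criteria, 16.6% as higher, and 28.0% had all DR arrays above the controls. Both genes were among the larger rises of this comparison too, at ranks 9 and 14 of 1713 genes, so that the choice may have drawn on it, and p-values from these arrays are not independent of the choice. The call for rib was lost without control replicate 3 or without any 1 of the DR arrays, with differences of 2.53 to 2.93 and adjusted p of 0.0699 to 0.117, and also without the filter on absent probesets (adjusted p = 0.0797), with the replicate block (0.0987) and after quantile normalization was repeated (2.36, 0.0578).

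At Day 40 the arrays of yw/w1118 DR flies and controls overlapped for both genes. rib read 5.64, 6.43 and 4.50 with DR and 5.06, 5.66 and 5.91 in controls, a difference of -0.02 ± 0.58 with a 95% interval of -1.54 to 1.51 (limma, adjusted p = 1). Tom read 4.97, 5.69 and 3.41 against 4.30, 3.50 and 4.09, a difference of 0.73 ± 0.67 (-1.05 to 2.50, adjusted p = 0.633). Replicate 3 of the DR group was the lowest DR array for both genes. The change of the DR effect between the ages was -2.65 ± 1.0 for rib and -1.81 ± 0.83 for Tom and did not pass limma's interaction test (adjusted p of 0.147 and 0.225), although rib passed in the fit of all groups (adjusted p = 0.0439). Of all probesets tested 0.0548% were called for DR at Day 40 and 7.03% for the change with age.

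In Canton-S females at Day 10 DR lowered rib, and Tom did not pass the test. With DR rib stood at 5.75, 5.75 and 5.50 against 6.96, 6.31 and 6.53 in controls, with no overlap. The change was -0.93 ± 0.20 (SE, 1.91-fold, 95% interval -1.45 to -0.42, adjusted p = 0.0150 in limma), among 15.5% of probesets called as lower and 33.2% with all DR arrays below the controls. The call was lost in the fit of all groups (adjusted p = 0.211) and in the methods' t-test, where p was 0.0111 against a threshold of 0.01. Tom read 6.87, 5.84 and 6.98 with DR and 6.27, 5.61 and 6.03 in controls, so that the groups overlapped through DR replicate 2. Its difference of 0.59 ± 0.38 (-0.42 to 1.60) did not pass (adjusted p = 0.278), but without that array it was 0.95 with an adjusted p of 0.0404.

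The effect of DR on rib at Day 10 differed between the backgrounds by -3.56 ± 0.83 (Canton-S minus yw/w1118, SE, 95% interval -5.45 to -1.68). This passed limma's interaction test at an adjusted p of 0.0460, as did 5.13% of probesets, but 10 of the 12 ways of leaving out 1 array moved the adjusted p to between 0.0662 and 0.0977, with differences of -3.86 to -3.38. The 2 arrays whose loss kept the call were replicates 1 and 2 of the yw/w1118 controls. For Tom the effects differed by -1.94 ± 0.60 and did not pass (adjusted p = 0.114). At Day 40 the backgrounds differed by 0.78 ± 0.85 for rib and 0.90 ± 1.06 for Tom (adjusted p of 0.667 and 0.691, with 4.99% of probesets called).

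Canton-S flies at Day 40 had scattered values. rib read 3.78, 5.55 and 4.55 with DR and 4.28, 4.15 and 3.16 in controls, a difference of 0.76 ± 0.58 (95% interval -0.75 to 2.27, adjusted p = 0.380 in limma). Tom read 5.82, 6.58 and 4.18 against 4.76, 3.39 and 3.53, a difference of 1.63 ± 0.77 (-0.38 to 3.65, adjusted p = 0.172). The groups overlapped for both genes, in a comparison that called 23.7% of probesets. The change of the Canton-S DR effect from Day 10 to Day 40 was 1.70 ± 0.63 for rib and 1.04 ± 0.89 for Tom (adjusted p of 0.125 and 0.525 in limma, with 10.3% of probesets called), and that of rib was called without replicate 1 of the Day 40 DR arrays (2.12, adjusted p = 0.0479). In the fit of all groups Tom passed for DR at Day 40 (adjusted p = 0.0324). Without the 3 arrays that held male organ transcripts the Day 40 differences were 0.38 for rib and 1.44 for Tom (adjusted p of 0.929 and 0.369 in limma, 2 arrays against 1), and 0 probesets were called, fewer than the 2887 with all arrays.

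With dSir2 overexpression at Day 10 both genes overlapped with the controls, which are the same arrays that served yw/w1118 DR, and neither was called. rib read 5.12, 5.01 and 3.92 in dSir2 flies, a difference of -0.24 ± 0.84 (SE, 95% interval -2.46 to 1.97, adjusted p = 0.915 in limma). Tom read 5.86, 4.45 and 4.98, the first of them above all 3 controls, a difference of 0.02 ± 0.53 (-1.38 to 1.41, adjusted p = 1). Control replicate 1 lay below the other 2 for both genes, and 10.5% of probesets were called in the comparison. The difference between the effects of DN-Dmp53 and dSir2 at Day 10 was 4.27 ± 0.94 for rib and 3.90 ± 0.55 for Tom, which uses the arrays that chose the genes and was not tested.

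At Day 40 dSir2 flies read 6.59, 6.92 and 6.66 for rib and 4.73, 6.52 and 5.14 for Tom, above all 3 controls in both cases, as 6.95% of probesets were. The difference was 1.18 ± 0.25 (SE, 95% interval 0.51 to 1.85) for rib and 1.5 ± 0.55 (0.03 to 2.96) for Tom. Unadjusted p were 0.00702 and 0.0468, and limma's adjusted p were 0.333 and 0.490, so neither was called. Nor was any of the 12742 probesets tested (0.00%), although 1269 had an unadjusted p under 0.05 and the methods' t-test called 21. The change of the dSir2 effect with age was 1.42 ± 0.91 for rib and 1.48 ± 0.79 for Tom and did not pass (adjusted p of 0.436 and 0.338, with 5.64% of probesets called).

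**Figure D2:**
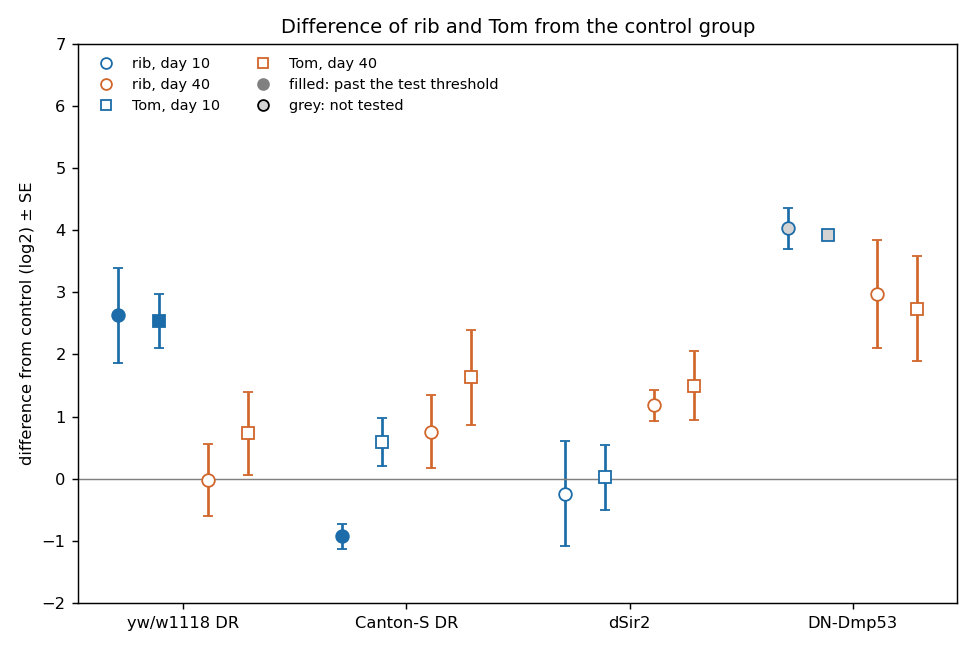
Difference of rib (circles) and Tom (squares) from the control group on the log2 scale in the 8 intervention comparisons, with bars of 1 SE; blue is Day 10, orange Day 40, filled marks passed limma's test and grey marks belong to the comparison that chose the genes. Tom lay above or at its control in each comparison, while rib ran from -0.93 in Canton-S DR at Day 10 to 4.03 with DN-Dmp53 at Day 10.

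With age, rib and Tom fell in the Canton-S controls. rib went from 6.96, 6.31 and 6.53 at Day 10 to 4.28, 4.15 and 3.16 at Day 40, a change of -2.74 ± 0.37 (SE, 95% interval -3.71 to -1.76, adjusted p = 0.0161 in limma), and Tom from 6.27, 5.61 and 6.03 to 4.76, 3.39 and 3.53, a change of -2.08 ± 0.44 (-3.23 to -0.93, adjusted p = 0.0387). Among all probesets 2.72% were called as lower and 24.7% had all Day 40 arrays below those of Day 10. The rib call did not survive the loss of any 1 of the Day 10 arrays (changes of -2.88 to -2.56, adjusted p of 0.0503 to 0.0578). That of Tom was lost without any array except replicate 1 at Day 40 (-2.26 to -1.83, adjusted p of 0.0886 to 0.114), without the filter (0.0840) and with the replicate block (0.0522). Without Day 40 replicates 2 and 3, which held male organ transcripts, neither gene was called, at -2.32 for rib and -1.21 for Tom (adjusted p of 0.0509 and 0.119 in limma, 1 array against 3). The array that remained, replicate 1, was below all Day 10 arrays for both genes.

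In yw/w1118 DR flies all 3 arrays of Day 40 lay below all 3 of Day 10 for both genes, as did 24.8% of probesets. The change was -2.03 ± 0.54 (SE) for rib and -2.92 ± 0.68 for Tom, just outside limma's threshold (adjusted p of 0.0721 and 0.0539). Both passed in the fit of all groups (0.00958 and 0.000634), with each array centred on its median (0.0422 and 0.0297) and with the filter raised to the 50th percentile (0.0272 and 0.0191), and 7.99% of probesets were called. In Canton-S DR flies the changes were -1.04 ± 0.48 for rib and -1.04 ± 0.74 for Tom (-0.36 without Day 40 replicate 3, which held male organ transcripts), the ages overlapped, and neither passed (adjusted p of 0.221 and 0.413), where 9.66% were called.

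In dSir2 flies rib rose with age. It went from 5.12, 5.01 and 3.92 at Day 10 to 6.59, 6.92 and 6.66 at Day 40, by 2.04 ± 0.37 (SE, 95% interval 1.06 to 3.02, adjusted p = 0.0214 in limma), among 8.55% of probesets called as higher and 20.1% with all Day 40 arrays above those of Day 10. Tom changed by 0.36 ± 0.64 with overlapping ages (adjusted p = 0.750). Leaving out replicate 2 at Day 10 or any of the Day 40 arrays took the adjusted p of rib to between 0.0592 and 0.0682, at changes of 1.94 to 2.20, and the replicate block took it to 0.0698.

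In the dSir2 controls rib changed by 0.62 ± 0.80 (adjusted p = 0.611 in limma) and Tom by -1.12 ± 0.43 (95% interval -2.25 to 0.01, adjusted p = 0.101), against 28.2% of probesets called. Every Day 40 array of Tom was below every Day 10 array there, as for 31.6% of probesets, and without replicate 1 of Day 10 the change was -1.50 with an adjusted p of 0.0299. In the DN-Dmp53 flies and their controls, whose Day 10 arrays chose the genes, rib differed between the ages by -1.10 ± 0.48 with DN-Dmp53 and -0.03 ± 0.79 in controls, and Tom by -1.62 ± 0.69 and -0.44 ± 0.51. Without the 2 DN-Dmp53 arrays that held male organ transcripts the changes with DN-Dmp53 were -2.05 for rib and -2.81 for Tom. The ages did not overlap in the DN-Dmp53 flies, where 21.1% of probesets were lower on every Day 40 array, and did in the controls.

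The fed controls of the lines were compared with each other at each age. At Day 10 Canton-S controls exceeded dSir2 controls by 1.68 ± 0.78 (SE) for rib, with no overlap (15.1% of probesets were higher on every Canton-S array), and by 0.89 ± 0.40 for Tom, with overlap. Neither passed (adjusted p of 0.203 and 0.195 in limma, with 8.57% called). At Day 40 rib was lower in Canton-S, by -1.68 ± 0.40 (95% interval -2.75 to -0.61, adjusted p = 0.0495), where 10.7% of probesets were called and 19.8% were lower on every Canton-S array. That call was lost without any 1 of the 6 arrays (adjusted p of 0.0583 to 0.139, differences of -1.92 to -1.33), without the filter (0.0956), with the replicate block (0.165), after repeated quantile normalization (-1.49, 0.0824) and without the 2 Canton-S arrays that held male organ transcripts (-1.26, 0.261). Tom differed by -0.07 ± 0.46 at Day 40 (adjusted p = 0.982), and by 0.79 without those 2 arrays (adjusted p = 0.405). The DN-Dmp53 controls, which like the dSir2 controls received diluent, on food that may have differed, were below the dSir2 controls at Day 40 by -1.42 ± 0.76 for rib and -1.0 ± 0.55 for Tom (adjusted p of 0.422 and 0.436, with 0.717% called), and at Day 10 by -0.77 ± 0.82 and -1.67 ± 0.37, of which only Tom at Day 10 did not overlap, with 17.5% of probesets lower on every array there. Over the 20 tested comparisons rib was called in 6 and Tom in 2. The share of all probesets called differed widely between them, with 0.0% for dSir2 at Day 40 and 29.7% for yw/w1118 DR at Day 10, so the counts are not a rate. Both counts include yw/w1118 DR at Day 10, on which the choice may have drawn. With any 1 array left out, the calls that held were rib with Canton-S DR and Tom with yw/w1118 DR, both at Day 10.

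The levels of the 2 genes varied together across groups and within them. Their group means correlated at a Pearson r of 0.819 over the 14 groups (Spearman 0.824), against a median of 0.022 for rib and -0.004 for Tom over the 4841 genes whose group means ranged over at least 1 log2 unit. The groups share controls, food and background, and the 2 genes were chosen for rising together with DN-Dmp53 at Day 10, which fixed part of this likeness, so these are descriptions. Without that group and its controls r was 0.739 over 12 groups (Spearman 0.741). Within groups, the deviations of the 42 arrays from their group means correlated at 0.654, a measure chosen after seeing the data, and at 0.664 over the 36 arrays outside the comparison that chose the genes. Both deviations had the same sign on 30 of 42 arrays, and the highest array was the same for both genes in 10 of 14 groups and the lowest in 8 of 14. In dSir2 controls at Day 10 replicate 1 deviated by -1.61 for rib and -0.76 for Tom, and in yw/w1118 DR at Day 40 replicate 3 deviated by -1.02 and -1.28. Deviations above 1 for Tom came with a rib deviation of 1.33 (DN-Dmp53 controls, Day 40, replicate 3), 0.75 (DN-Dmp53, Day 40, replicate 1), 0.92 (Canton-S DR, Day 40, replicate 2) and 0.19 (dSir2, Day 40, replicate 2).

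**Figure D3:**
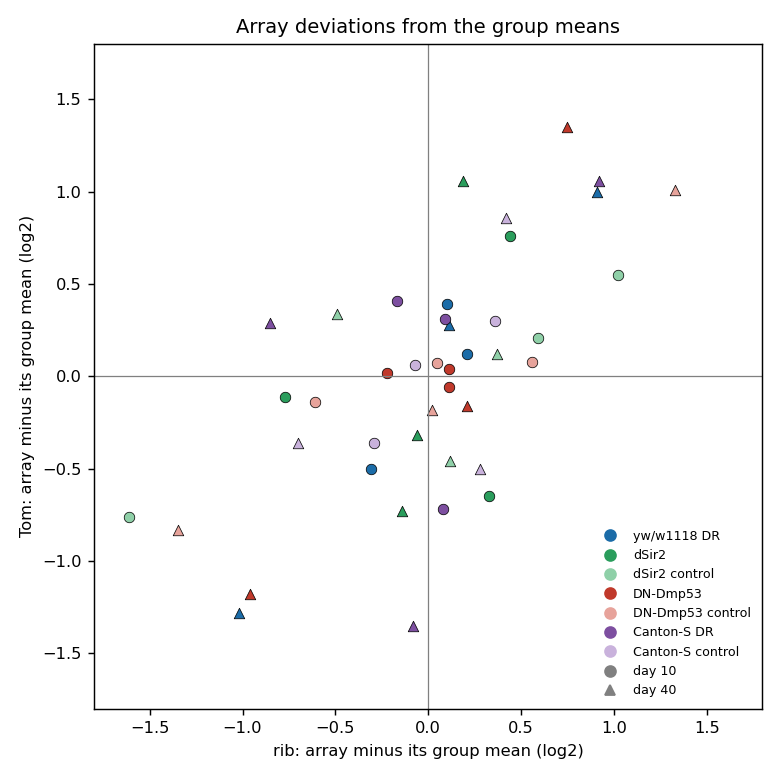
Deviation of each of the 42 arrays from the mean of its group for rib (x axis) and Tom (y axis), both in log2 units, with colours for conditions, circles for Day 10 and triangles for Day 40. Arrays gather in the lower left and the upper right (30 of 42), with a Pearson r of 0.654, and the larger deviations include many Day 40 arrays.

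The genes whose group means were most like those of rib were Ama (0.857), Tom (0.819), nw (0.803), nerfin-1 (0.795) and otk (0.783), by Pearson correlation over 14 groups. Those most like Tom were l(3)neo38 (0.877), Ama (0.852), rib (0.819), D (0.814) and elav (0.799). Ama (Amalgam) is an immunoglobulin-domain protein of the nervous system, nerfin-1 and D (Dichaete) are transcription factors of neural cells, otk is a receptor-like protein of axon guidance, elav is the RNA-binding protein that marks neurons, and nw (narrow) is a C-type lectin. Among 42 arrays Ama, Tom and nw stayed the closest to rib (0.832, 0.788 and 0.764), and Ama, rib and BobA to Tom (0.834, 0.788 and 0.788). For the deviations within groups Ama led for rib (0.734) and CG4440 (0.788), Ama (0.763), BobA (0.759) and Brd (0.753) for Tom. The probesets of Ama, nw and l(3)neo38 carry the suffix of probesets that can also detect other transcripts. nerfin-1 lay near the floor in most groups (2.12 in DN-Dmp53 controls at Day 10), with its highest means in DN-Dmp53 at Day 10 (3.23) and Day 40 (2.91). Only the Day 10 group, which chose the genes, took its range over 1 log2 unit, so its likeness to rib was partly fixed by that choice.

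Ama rose with yw/w1118 DR (2.40, adjusted p = 0.0277 in limma) and with DN-Dmp53 (2.75, adjusted p = 0.0222) at Day 10, as both genes did with DR. With Canton-S DR at Day 10, where rib fell, it differed by 0.30 (adjusted p = 0.578), and at Day 40 it rose there by 2.04 (adjusted p = 0.00910), where neither rib nor Tom was called. With DN-Dmp53 at Day 40 Ama differed by 1.09 (adjusted p = 0.469). nw rose with DN-Dmp53 at Day 10 (4.32, adjusted p = 0.00167), the comparison that chose rib, and fell with Canton-S DR at Day 10 (-3.13, adjusted p = 0.00147), but it was not called with yw/w1118 DR at Day 10 (0.89, adjusted p = 0.154). elav rose by 1.33 with yw/w1118 DR at Day 10 (adjusted p = 0.0121) and fell by 0.72 with Canton-S DR (adjusted p = 0.0123), and its difference with DN-Dmp53 was 1.25 (adjusted p = 0.360). These genes were picked by likeness over the same arrays, so their p-values are not independent of that choice.

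**Figure D4:**
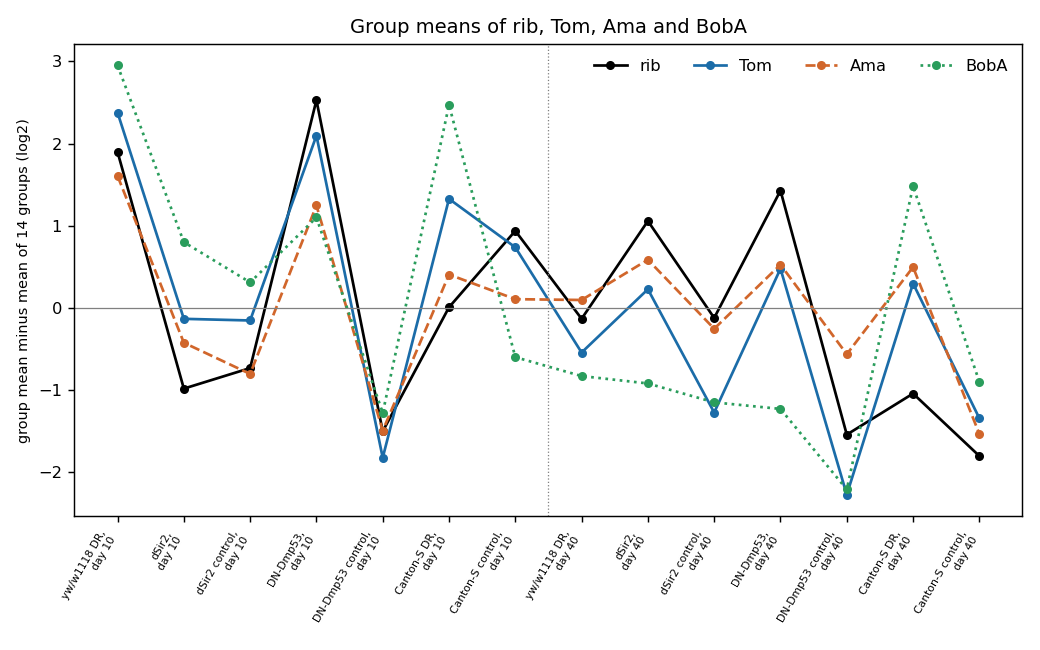
Group means of rib, Tom, Ama and BobA on the log2 scale, each minus its own mean over the 14 groups, with Day 10 groups to the left of the dotted line and Day 40 groups to the right; lines only join the points of a gene. rib, Tom and Ama had peaks at yw/w1118 DR and DN-Dmp53 of Day 10 and were low in DN-Dmp53 controls, and BobA stood high in the Canton-S DR groups.

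Of the 10 listed genes of the Bearded family 8 had a probeset of their own. Tom, BobA, Brd and E(spl)malpha-BFM were measured above the floor on most arrays (within 0.1 of it on 1, 1, 3 and 0 arrays), whereas Ocho, E(spl)m4-BFM, E(spl)m2-BFM and E(spl)m6-BFM were near it on 40, 39, 39 and 42. With yw/w1118 DR at Day 10, 4 of 7 tested members rose and 0 fell (16.6% of all probesets were higher), and the list's median was 1.26 against 0.00 for all probesets. Beside Tom these were Brd, at 5.73, 6.60 and 5.64 against 2.64, 3.40 and 3.59 (2.78 ± 0.39, SE, adjusted p = 0.00441 in limma), BobA, at 7.43, 7.84 and 6.89 against 3.93, 4.78 and 5.53 (2.64, adjusted p = 0.0105), and E(spl)malpha-BFM (1.26, adjusted p = 0.0315). No array of these DR flies overlapped with a control for Brd or BobA. The members tested here and in the comparisons below included genes near the floor, which cannot fall from it, so 0 falling says little of them. E(spl)m4-BFM and E(spl)m2-BFM read 2.11 on the control arrays and 2.13 to 2.89 with DR, and only the DR arrays brought them into the test.

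With Canton-S DR at Day 10, 3 of 7 rose and 0 fell (16.0% of all probesets were higher), with a list median of 0.59 against 0.00. BobA read 7.56, 5.76 and 7.4 against 3.74, 3.93 and 3.86 (3.06, adjusted p = 0.00871 in limma), and Brd 5.59, 3.44 and 5.19 against 2.88, 2.34 and 2.63 (2.12, adjusted p = 0.0458). E(spl)malpha-BFM rose by 0.66 (adjusted p = 0.0351) and Tom, as above, did not pass. The DR array low in Tom, replicate 2, was also the lowest in BobA and Brd.

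With DN-Dmp53 at Day 10, where 2.01% of all probesets were called, Tom was the 1 member of 7 past the threshold, which chose it. BobA read 6.10, 5.53 and 5.00 against 3.98, 3.01 and 2.51 in controls, a difference of 2.38 without overlap (adjusted p = 0.0975 in limma), E(spl)malpha-BFM differed by 1.25 (0.0567) and Brd by 0.69 (0.413), with a list median of 0.69. No member was called for dSir2 at Day 10, beside 10.5% of all probesets, or in any of the 4 comparisons at Day 40, where list medians were 0.14 to 0.43. Calls at the later age were rare for any probeset with yw/w1118 DR (0.0548%), dSir2 (0.0%) and DN-Dmp53 (0.00786%), though not with Canton-S DR (23.7%). At Day 40 the DN-Dmp53 differences of BobA (0.98) and Brd (0.14) were well under the 2.74 of Tom, and none of the 3 was called. In Canton-S DR flies at Day 40 replicate 3 was the lowest array of the 3 for Tom (4.18), BobA (3.80) and Brd (2.73).

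**Figure D5:**
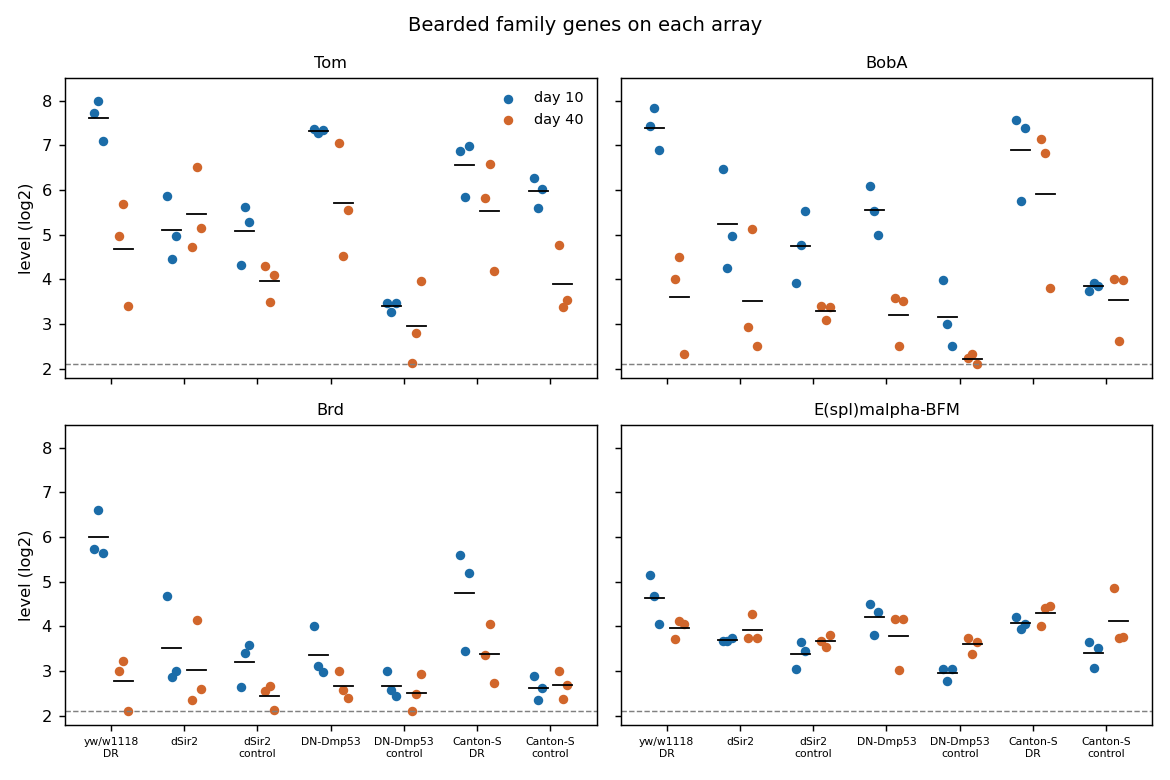
Levels (log2) of the 4 Bearded family genes measured above the floor, with 1 point per array, bars for group means, blue for Day 10, orange for Day 40 and a dashed line at the lowest value of 2.11; levels compare arrays within a panel, not genes. Tom, BobA and Brd were highest in yw/w1118 DR at Day 10, and BobA and Brd but not Tom separated Canton-S DR from its controls at Day 10.

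Notch signalling beyond the Bearded family was read from 3 further lists. The first held the bHLH repressors of the Enhancer of split, which Notch switches on, and the related repressors dpn and h, which lie outside that complex. With yw/w1118 DR at Day 10, 4 of 7 tested members were higher, among them E(spl)m3-HLH (1.48, adjusted p = 0.00290 in limma) and h (1.35, adjusted p = 0.000756). With Canton-S DR it was 2 of 7, again E(spl)m3-HLH (1.62) and h (1.04), where 16.6% and 16.0% of all probesets were higher. It was 2 of 6 with Canton-S DR at Day 40 and 1 of 6 with dSir2 at Day 10, where 23.7% and 10.5% of all probesets were called in either direction. With DN-Dmp53 none of 6 was called at Day 10 and none of 5 at Day 40, beside 2.01% and 0.00786% of all probesets. Of 22 genes of the Notch pathway core 16 had a probeset naming them alone, and N and Su(H) were not among these. With yw/w1118 DR at Day 10, 2 rose and 3 fell of 15 tested, a share near the 29.7% of all probesets called, with fng (0.82), a glycosyltransferase that modifies Notch, and mam (0.82), a coactivator of Notch targets, on one side and pen-2 (-0.73), a gamma-secretase subunit, and dx (-0.67), a ubiquitin ligase that acts on Notch, on the other. With Canton-S DR at Day 10 it was 1 and 4 of 15, with dx (-0.98) and the ligand Dl (-0.95) lowest, where 16.0% of all probesets were higher and 15.5% lower. In the same line at Day 40 it was 1 and 4 of 16, beside 23.7% of all probesets. dSir2 at Day 10 had 1 up (fng, 0.81) and 1 down (dx, -0.64), beside 10.5% of all probesets called. DN-Dmp53 had 0 at both ages, beside 2.01% at Day 10 and 0.00786% at Day 40.

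neur, which encodes the ligase Neuralized that Tom binds, was called in none of the 8 comparisons (-0.50 to -0.01), and Dl differed by -0.39 with yw/w1118 DR and 0.01 with DN-Dmp53 at Day 10. The proneural list held 9 genes: bHLH factors that commit cells to a neural fate and genes that act with them or, as emc does, against them. Of these 4 to 7 were tested in each comparison. Calls came only with Canton-S DR, where sens (0.97) and emc (0.69) rose and da (-0.65) fell at Day 10 and da fell (-0.66) at Day 40. Of all probesets 16.0% were higher and 15.5% lower with Canton-S DR at Day 10, and 23.7% were called at Day 40.

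Of 14 factors with a BTB or a Pipsqueak-type domain listed as related to rib, lolal among them, 12 had a probeset. With yw/w1118 DR at Day 10, 5 of 12, rib included, rose and 2 fell, where 16.6% of all probesets rose and 29.7% were called, with fru (1.35, adjusted p = 0.00473 in limma), bab2 (1.19) and chinmo (1.0) next to rib among the rises, and the list median was 0.31. fru is known for sex-specific neural development, bab2 for patterning of legs and ovary, and chinmo for the timing of neuron identity. The same 3 rose with Canton-S DR at Day 10 (1.37, 1.08 and 2.03), where rib was the 1 member that fell, beside 16.0% of all probesets higher and 15.5% lower. With DN-Dmp53 at Day 10 rib was the 1 of 12 past the threshold, and at Day 40 none was, beside 2.01% and 0.00786% of all probesets. lolal was called in none of the 8 comparisons and differed by -0.40 to 0.09, -0.40 of it with yw/w1118 DR at Day 10.

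Regulators of the salivary gland and trachea, the organs that rib shapes in the embryo, had 12 of 17 listed genes on the array. With yw/w1118 DR at Day 10, 4 of 11 rose, against 16.6% of all probesets, which were fkh (1.10), the forkhead factor of the salivary gland, kni (1.06), bnl (0.98), the FGF that guides tracheal branches, and vvl (0.89). With Canton-S DR at Day 10, 4 of 10 rose, against 16.0%, which were bnl (1.68), fkh (1.09), vvl (0.97) and sage (0.81), and none fell in either. With DN-Dmp53 0 were called at both ages, beside 2.01% and 0.00786% of all probesets, with list medians of 0.14 and -0.01.

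Marker genes of cell types moved with some of these comparisons, and their part in the results was not tested. Of all probesets 16.6% were higher with yw/w1118 DR at Day 10 and 16.0% with Canton-S DR at Day 10. With DN-Dmp53 at Day 10 only 2.01% were called, so 0 called of a few markers there says little about them. Fat body markers had 3 of 7 higher and 1 lower with each DR at Day 10, and 1 lower with DN-Dmp53. Midgut markers had 2 of 6 higher with each DR and 0 called with DN-Dmp53. Of adult trachea and salivary gland markers, 0 of 2 were called with yw/w1118 DR. With Canton-S DR 1 of 1 tested was higher, and with DN-Dmp53 0 of 1 was called. Of all probesets 29.7% were called either way with yw/w1118 DR and 15.5% lower with Canton-S DR. Summed over 8 of 10 listed neuron markers, the log2 level was 8.34 to 8.66 with yw/w1118 DR at Day 10 against 7.19 to 7.57 in controls, and 7.92 to 8.13 with DN-Dmp53 against 7.38 to 7.81, and 4 and 0 of 8 were called. The neuron marker brp was at the floor in all 4 of these groups. Muscle markers (6 of 8) rose from 11.35 to 11.60 up to 12.83 to 13.03 with yw/w1118 DR, and all 6 were called, whereas with DN-Dmp53 they read 12.03 to 12.12 against 11.82 to 11.95 and 0 were called. Photoreceptor markers (4 of 6) read 10.60 to 10.81 against 9.41 to 9.52 with DR, with all 4 called as higher, and 10.30 to 10.40 against 9.55 to 9.98 with DN-Dmp53, with 0 called. With Canton-S DR at Day 10, where rib fell, neuron markers read 8.39 to 8.82 against 7.43 to 7.49, with 3 called as higher and elav as lower, muscle markers 12.25 to 12.65 against 10.36 to 11.06, with 5 of 6 higher, and photoreceptor markers 11.06 to 11.22 against 9.19 to 9.51, with all 4 higher.

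Ovary and germline markers (13 of 14) were at 17.37 to 17.42 with yw/w1118 DR against 17.62 to 17.69, with 3 called as lower, where 29.7% of all probesets were called in either direction. With DN-Dmp53 they were at 17.44 to 17.59 against 17.58 to 17.67, with 0 called, beside 2.01% of all probesets. With Canton-S DR at Day 10 they read 17.30 to 17.43 against 17.59 to 17.63, with 6 called as lower, beside 15.5% of all probesets. Eggs and embryos held in the females were looked at through 2 lists added after seeing the data. Genes of the cellularizing embryo (8 of 8, 3 of them at the floor on every array) read 5.14 to 5.26 with DN-Dmp53 and 5.16 to 5.25 in controls, and 5.22 to 5.36 with yw/w1118 DR against 5.18 to 5.39, with 0 called. Genes of the embryonic neuroectoderm and neuroblasts (9 of 10) read 7.08 to 7.75 against 6.96 to 7.05 and 7.89 to 8.36 against 6.76 to 6.93, with 1 of 7 called for DN-Dmp53 (nerfin-1, 1.12, adjusted p = 0.00318 in limma) and 4 of 7 for DR, beside 2.01% of all probesets called and 16.6% higher. nerfin-1 and D of this list were also picked by likeness to rib and Tom over the same arrays. The DN-Dmp53 arrays are those that chose rib and Tom, so these counts are not independent of either choice. Of the listed genes ind and ase were at the floor with DR and its controls.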

How the data were processed

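The authors hybridized RNA of whole females to 42 Affymetrix Drosophila 2.0 arrays, quantile normalized them and summarized the probes with GCRMA (version not given in the sources used here), and the deposited log2 values were used unchanged. Genes were named through the supplied probe table, so that of 18952 probesets 183 array controls were left out, and of 18769 others 402 name several genes and 4720 none. Probesets whose group means were at or below the 25th percentile in every group compared were left out as absent, after the methods. Each of 26 comparisons was fitted with limma (version 3.58.1, R 4.3.3; lmFit and eBayes, two-sided) on its own arrays, with Benjamini-Hochberg adjustment over all probesets tested. Calls needed an adjusted p below 0.05 and, except for interactions, more than a 1.5-fold change. The members, gene lists and tests were chosen with earlier results of these data known, and 20 comparisons that do not share arrays with DN-Dmp53 at Day 10 were tested for the members. A comparison was taken as used for the choice where a member was among the 5 largest changes of called genes (3 at Day 40). Named beside the members were the Bearded family, lolal, neur, N, Dl and Su(H), up to 4 called genes of each list with the largest change, and the 5 genes most like each member. The paper describes replicates as biological, but p-values measure only the spread between 3 arrays, and their number limits the precision of every value. Same-numbered arrays deviated together for DN-Dmp53 (Day 10 correlations of 0.651, 0.452 and 0.784, Day 40 correlations of 0.313, 0.295 and 0.223) and for its controls against those of dSir2 at Day 40 (0.528, 0.272 and 0.165), which pairs them there from the data. The fit was tested on simulated data. Settings tried beside these were a wider and no absent filter, 1 fit over the 14 groups, the replicate number as a block, repeated quantile normalization, centring, a mean-variance trend, the methods' t-test (p under 0.01) and leaving out each array or, added after seeing the data, the 5 arrays with male organ transcripts. Figures were drawn with matplotlib 3.10.9, and summaries made in Python 3.11.15 with numpy 2.4.6 and pandas 2.3.3.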

Additional observations from a re-analysis of the deposited data

Results flagged for a closer look

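Each of these results concerns rib and was singled out because every array moved one way in one comparison and every array the opposite way in the other, or because the difference passed its test. Its difference was 2.63 for DR in yw/w1118 females and -0.93 for DR in Canton-S females at Day 10, 3.56 apart, and the test of that difference (-3.56, Canton-S minus yw/w1118) gave an adjusted p of 0.0460 in limma. With age rib changed by -2.74 in Canton-S controls and by 2.04 in dSir2 flies, a gap of -4.78, and by -2.03 in yw/w1118 DR flies, a gap of -4.07 from dSir2 flies. In DN-Dmp53 flies it changed by -1.10, a gap of 3.14 between the change in dSir2 flies and this one. The mean level of rib itself was lower in dSir2 than in DN-Dmp53 flies at Day 10 (4.68 against 8.19). At Day 40 the means were 6.72 and 7.09, but the arrays overlapped (6.59, 6.92 and 6.66 against 7.84, 6.13 and 7.30). DN-Dmp53 replicate 2 (6.13), the array of that group without male organ transcripts, lay below every dSir2 array. These 3 gaps between ages were not tested. For Tom no pair of comparisons had all arrays on opposite sides. With age it differed by -2.08 in Canton-S controls, -2.92 in yw/w1118 DR flies and 0.36 in dSir2 flies, where the ages overlapped.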

How the results depend on the processing

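Of 594 values of the tested member comparisons under alternatives, 530 kept the side of the threshold of the reported value, 46 lost a call, 18 gained one, and no called value changed sign. In 7 results that were not called or not tested, 19 values crossed 0. Without a filter on absent probesets calls were lost at 2.63 (rib, yw/w1118 DR, Day 10), -2.08 (Tom, age in Canton-S controls), -1.68 (rib, Canton-S against dSir2 controls, Day 40) and -3.56 (rib, DR effect between backgrounds, Day 10). That setting put more probesets into the adjustment and also into limma's shared estimate of spread, and their parts were not separated. With the replicate block the same 4 were lost (2.63, -2.08, -1.68 and -3.56) and so was 2.04 (rib, age in dSir2 flies). None of these 5 belongs to a comparison whose arrays the numbers pair, and for DN-Dmp53 at Day 40 the block changed no call. Repeated quantile normalization took 2.63 to 2.36 and -1.68 to -1.49, without a call, brought Tom to -1.35 (age in dSir2 controls) and -3.12 (age in yw/w1118 DR flies) with one, and moved Tom with DN-Dmp53 at Day 10 to 3.81. The methods' t-test called neither 2.63 nor -0.93 for rib, as both p-values were above its threshold of 0.01. One fit of all groups did not call -0.93 (rib, Canton-S DR, Day 10) and called 1.63 (Tom, Canton-S DR, Day 40), 2.97 and 2.74 (rib and Tom, DN-Dmp53, Day 40), -2.03 and -2.92 (rib and Tom, age in yw/w1118 DR flies), 1.68 (rib, Canton-S against dSir2 controls, Day 10) and -2.65 (rib, change of the yw/w1118 DR effect with age). In every comparison that fit takes its spread partly from the Day 10 arrays that chose the genes, so its calls are not independent of the choice. Absent at the 50th percentile called -1.12 (Tom, age in dSir2 controls), -2.03 and -2.92, centring each array called -1.97 and -2.87 in place of the last 2, and a mean-variance trend called -2.92 (Tom). The causes of these changes were not tested.

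Without the 5 arrays that held male organ transcripts, calls were lost at -2.32 (rib) and -1.21 (Tom) for age in Canton-S controls and at -1.26 for rib in Canton-S against dSir2 controls at Day 40. Changes with age in DN-Dmp53 flies became -2.05 (rib) and -2.81 (Tom), and the change of the DN-Dmp53 effect with age -2.02 and -2.36.

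Leaving out each array gave rib 1.82 to 3.14 for yw/w1118 DR at Day 10, -2.95 to -2.39 for age in Canton-S controls, 1.66 to 2.26 for age in dSir2 flies, -1.92 to -1.33 for Canton-S against dSir2 controls at Day 40, 1.23 to 2.12 for the change of the Canton-S DR effect with age and -4.07 to -2.76 for the DR effect between backgrounds at Day 10. It gave Tom 0.39 to 0.95 for Canton-S DR at Day 10, -1.5 to -0.84 for age in dSir2 controls and -2.51 to -1.83 for age in Canton-S controls. Where an arm had 1 or 2 arrays left, they were assumed to vary like the other group.

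Counts of called probesets moved by more than 1.5 times for DN-Dmp53 at Day 10 (247) without the filter (151), with the block (105), in the methods' t-test after Benjamini-Hochberg (140) and without 1 array (down to 82, DN-Dmp53 replicate 2), for dSir2 at Day 10 (1322) with the block (559) and without control replicate 3 (767), control replicate 2 (805) or dSir2 replicate 1 (872), for Canton-S DR at Day 40 (2887) without control replicate 3 (1538) or 2 (1708), for yw/w1118 DR at Day 40 (7) from 0 with the block to 852 in the fit of all groups, for DN-Dmp53 at Day 40 (1) from 0 to 337 and for dSir2 at Day 40 (0) up to 21 in the methods' t-test. Of the 5 genes most like each member, 3 were the same by Spearman correlation for rib and for Tom, and 2 by deviations within groups.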
